A study of Mus musculus with 6 samples.

Results

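The genes described here are the 10 named members of the MHC class I antigen presentation pathway: the heavy chains H2-K1 and H2-D1, the light chain B2m, the peptide transporter subunits Tap1 and Tap2, the loading factor Tapbp, the immunoproteasome subunits Psmb8, Psmb9 and Psmb10, and the transactivator Nlrc5. They were picked out by gene symbol from a table of 22369 genes, and the list was drawn up with earlier results of these data known. Of the 10 members, 9 had a row in the table, 8 had reads, and these 8 were tested. Nlrc5 was not analysed here.

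mRNA was sequenced from 6 libraries of immortalized mouse embryonic fibroblasts (iMEF), all from C57BL/6 mice and all growing asynchronously, with 2 libraries per group. Nrdc+/+ iMEF are wild type, Nrdc-/- iMEF lack nardilysin (Nrdc), a metallopeptidase of the M16 family that also binds methylated histone H3, and Nrdc-/-WT iMEF are Nrdc-/- cells infected with a lentivirus that expresses wild-type Nrdc. The methods of the study call its replicates biological, without saying how they were separated, so p-values measure the spread between these libraries of a line. Whether each line is a single clone is not given in the sources used here. Nrdc+/+ and Nrdc-/- iMEF are separate lines, so the genotype and other differences between the lines cannot be told apart, and no RNA-seq library of Nrdc-/- cells with an empty virus was analysed here, so Nrdc and the infection cannot be told apart either.

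The libraries held 16385565 to 19764315 reads over the listed genes. Nrdc mRNA, listed as Nrd1, was at 27.9 and 28.9 RPKM (reads scaled to gene length and library size) in Nrdc+/+ iMEF, 1.53 and 1.51 RPKM in Nrdc-/- iMEF, and 5.89 and 5.40 RPKM in Nrdc-/-WT iMEF. The order follows the labels, and the Nrdc-/-WT libraries lay between the other groups. For protein, the study describes Nrdc in Nrdc-/-WT iMEF as similar in level to wild type, by immunoblotting and immunocytochemistry. The 8 fibroblast markers summed to 2901 to 4698 RPKM per library, although Thy1 reached no more than 0.51 RPKM. The sum hides 2 markers that stood far lower in Nrdc+/+ iMEF: Pdgfra was at 5.02 and 4.38 RPKM in Nrdc+/+ v.s. 55.4 and 51.3 RPKM in Nrdc-/- iMEF (log2 -3.44, adjusted p = 8.89e-09), and Col3a1 at 36.7 and 37.6 v.s. 269.5 and 261.6 RPKM (log2 -2.83, adjusted p = 7.88e-09). Neither was called in Nrdc-/-WT v.s. Nrdc-/- iMEF (log2 0.02 for each), and their part in the levels of the members was not tested. The 8 matched leukocyte and macrophage markers summed to 2.32 to 2.82 RPKM in Nrdc+/+, 4.02 to 4.06 RPKM in Nrdc-/- and 1.82 to 2.16 RPKM in Nrdc-/-WT iMEF. This sum joins genes that went in opposite directions. The pan-leukocyte gene Ptprc stayed at or below 0.0199 RPKM and Emr1 and Cd3e had 0 reads, while the lysozyme gene Lyz2 was at 3.26 and 3.57 RPKM in Nrdc-/- iMEF, 0.50 and 0.327 RPKM in Nrdc-/-WT iMEF and 0 in Nrdc+/+ iMEF. Cd68 was highest in Nrdc+/+ iMEF, at 1.99 and 2.47 RPKM, with 0.46 and 0.176 RPKM in Nrdc-/- and 1.05 and 0.767 RPKM in Nrdc-/-WT iMEF, and Csf1r was highest in Nrdc-/-WT iMEF, at 0.422 and 0.482 RPKM. Endothelial markers summed to 1.34 to 1.70 RPKM in Nrdc+/+ iMEF, nearly all of it Kdr, and to 0.0681 to 0.198 RPKM in the other lines. Epithelial markers summed to at most 0.618 RPKM. The part of these markers in the levels of the members was not tested.

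Class I molecules show peptides from the cell's own proteins to CD8+ T cells. Proteasomes cut the proteins, the Tap1-Tap2 transporter carries the peptides into the endoplasmic reticulum, and Tapbp (tapasin) holds empty class I molecules at the transporter until a peptide fits. Interferons raise most of these genes together, and they do so partly through the SXY module, a promoter stretch bound by RFX, CREB/ATF and NF-Y proteins, to which Nlrc5 is recruited. Fibroblasts generally express class I at a low level at rest.

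Promoter windows were read from RefSeq (GRCm38.p6), where 8 of the 10 members matched, and the 250 bases before the start site are shown for the heavy chains and the light chain, which share a spacing of SXY-type letters, and for Tap1, where such letters lie in another order. The Tap2 and Nlrc5 windows were not used here. Capitals mark every match, on either strand, to 5 motifs: CCAAT (the NF-Y box, ATTGG on the other strand), TGACG (a CRE-type core), GGGANTCCC (a kB site), GAAANNGAA (an interferon response core) and TTCNNNGAA (a STAT site).
H2-K1, chr17:34000334-34000583, minus strand, the nearer to the gene body of its listed starts: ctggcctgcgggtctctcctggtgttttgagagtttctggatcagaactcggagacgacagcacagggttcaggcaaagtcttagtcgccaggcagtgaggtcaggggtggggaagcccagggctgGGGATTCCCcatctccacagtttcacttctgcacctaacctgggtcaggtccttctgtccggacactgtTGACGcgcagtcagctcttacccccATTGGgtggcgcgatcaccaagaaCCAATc
H2-D1, chr17:35262844-35263093, plus strand: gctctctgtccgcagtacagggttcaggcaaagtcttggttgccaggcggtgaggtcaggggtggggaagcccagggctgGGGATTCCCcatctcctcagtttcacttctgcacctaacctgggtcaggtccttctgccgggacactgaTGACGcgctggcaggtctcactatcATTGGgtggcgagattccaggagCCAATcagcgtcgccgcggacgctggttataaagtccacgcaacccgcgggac
B2m, chr2:122147437-122147686, plus strand: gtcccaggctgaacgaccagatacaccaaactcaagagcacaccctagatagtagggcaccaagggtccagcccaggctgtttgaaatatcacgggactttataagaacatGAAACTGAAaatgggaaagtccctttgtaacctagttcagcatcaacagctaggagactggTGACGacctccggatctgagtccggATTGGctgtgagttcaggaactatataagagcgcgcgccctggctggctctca
Tap1, chr17:34187306-34187555, plus strand: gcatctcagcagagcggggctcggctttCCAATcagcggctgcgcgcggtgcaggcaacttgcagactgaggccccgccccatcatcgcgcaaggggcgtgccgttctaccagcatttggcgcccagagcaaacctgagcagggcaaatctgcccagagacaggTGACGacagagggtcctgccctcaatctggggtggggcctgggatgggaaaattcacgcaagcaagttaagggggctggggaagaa

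In H2-K1 and H2-D1 the same order of letters was found: the kB site GGGATTCCC, then TGACG 69 bases on, then ATTGG 25 bases after that. Aligned end to end, these windows were identical at 180 of 203 ungapped positions (88.7%). B2m held TGACG and ATTGG at the same spacing of 25 bases, and the interferon core GAAACTGAA 139 bases before its start. It had no match to the kB letters GGGANTCCC, and other forms of a kB site were not searched. Tap1 held TGACG 86 bases and CCAAT 222 bases before its start, so here the CCAAT lay upstream of TGACG. Of the other windows, that of Psmb8 had a STAT-type match, TTCCCAGAA, that of Tapbp had ATTGG only, and that of Psmb10 had no match. The Psmb9 window, which held CGTCA 144 bases and ATTGG 8 bases before its start, lies head to head with that of Tap1, shares 225 bases with it and so holds the same matches read from the other strand. Across 32851 promoter windows of this length, the kB letters were present in 0.636%, TGACG in 17.8%, CCAAT in 33.8%, the interferon core in 7.13% and the STAT-type letters in 7.02%. Only these letters were searched, so other forms of such sites are not marked. Both heavy chain windows hold cagtttcacttc, close to the interferon letters, and that of B2m holds gggaaagtccc, close to the kB letters. Neither stretch is covered by the motifs, so a window without a match is not shown to lack such a site. The matches are descriptions of sequence and say nothing of binding in these cells.

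All 8 tested members were lower in Nrdc+/+ than in Nrdc-/- iMEF. The ratio of mean RPKM ran from 1.56-fold for B2m to 162-fold for Tap2, which had 15 reads in Nrdc+/+ iMEF, and Psmb8 had no read there. The members had no common direction in Nrdc-/-WT v.s. Nrdc-/- iMEF: in Nrdc-/-WT iMEF the heavy chains, B2m, Tap1 and Psmb8 were lower than in Nrdc-/- iMEF, Psmb10 was higher, and Tap2 and Tapbp were not called. A call required an adjusted p under 0.05 in limma and a change of at least 1.3-fold. Calls were frequent in all comparisons: of 11598 genes tested, 32.0% were lower and 30.2% higher in Nrdc+/+ than in Nrdc-/- iMEF, against 8 of 8 members lower. In Nrdc-/-WT v.s. Nrdc-/- iMEF 22.7% of genes were lower and 20.5% higher, against 5 and 1 of the 8 members. In Nrdc+/+ v.s. Nrdc-/-WT iMEF 29.9% were lower and 30.6% higher, against 7 and 1 of the 8 members.

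The median log2 fold change of the 8 members was -3.13 in Nrdc+/+ v.s. Nrdc-/- iMEF, where that of all tested genes was -0.01. It was -0.58 in Nrdc-/-WT v.s. Nrdc-/- iMEF (all genes -0.02) and -3.02 in Nrdc+/+ v.s. Nrdc-/-WT iMEF (all genes 0.02). Tap1, Tap2 and Psmb8 passed the filter of a mean of 0.5 RPKM only through the groups where they are high, so their part in the counts for Nrdc+/+ iMEF is no independent support. The comparisons share libraries, so their values are set side by side and not correlated. In bulk RNA, fewer cells that express a gene and less of its RNA per cell cannot be told apart.

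**Figure D1:**
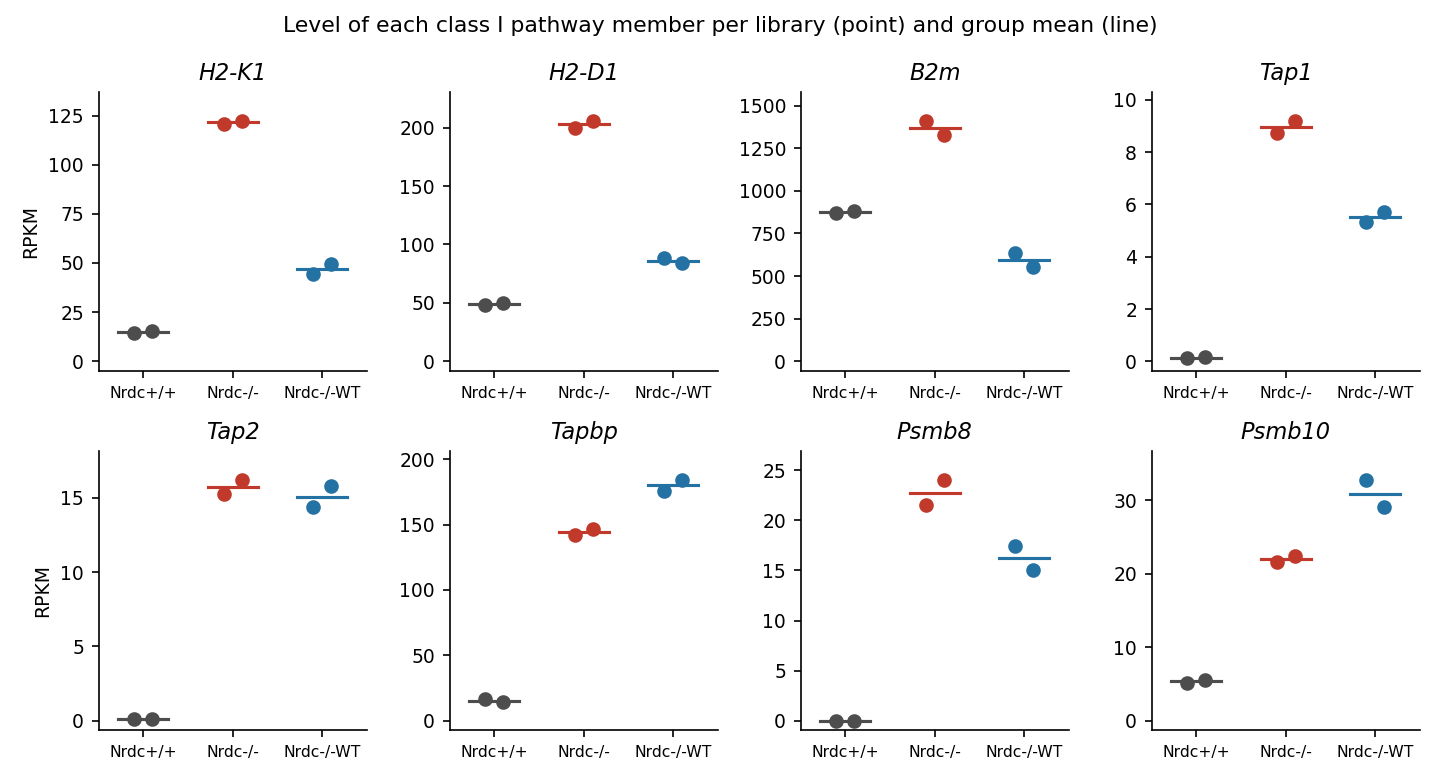
RPKM of the 8 members with reads in each library (points) with the mean of the 2 libraries per group (lines), each panel on its own linear axis from 0. The Nrdc+/+ points are the lowest for every gene but B2m, and those of Nrdc-/-WT lie between the other lines for H2-K1, H2-D1, Tap1 and Psmb8, below both for B2m and above both for Tapbp and Psmb10.

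H2-K1 (ENSMUSG00000061232, mm9 chr17:34132962-34137278, minus strand) encodes the K heavy chain, which holds the peptide. It was at 14.3 and 15.2 RPKM in Nrdc+/+, 120.9 and 122.3 RPKM in Nrdc-/-, and 44.5 and 49.4 RPKM in Nrdc-/-WT iMEF. The groups did not overlap, and Nrdc-/-WT iMEF stood between the other lines. The mean was 8.26-fold higher in Nrdc-/- than in Nrdc+/+ iMEF (log2 fold change of Nrdc+/+ v.s. Nrdc-/- -3.03, SE 0.069, adjusted p = 8.07e-09) and 2.59-fold higher than in Nrdc-/-WT iMEF (log2 -1.37, SE 0.069, adjusted p = 2.12e-06). Nrdc+/+ and Nrdc-/-WT iMEF also differed, by 3.19-fold (log2 -1.66, adjusted p = 2.47e-07).

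H2-D1 (ENSMUSG00000073411, mm9 chr17:35399675-35404444, plus strand), the D heavy chain, followed the same order with smaller differences. Its level was 48.3 and 49.7 RPKM in Nrdc+/+, 199.8 and 205.9 RPKM in Nrdc-/-, and 88.3 and 84.2 RPKM in Nrdc-/-WT iMEF. Again the groups were apart in all 6 libraries. The log2 fold change was -2.04 (SE 0.057, adjusted p = 2.29e-08) for Nrdc+/+ and -1.23 (SE 0.057, adjusted p = 1.38e-06) for Nrdc-/-WT, each against Nrdc-/- iMEF. H2-D1 exceeded H2-K1 in every library, by 3.27 to 3.39 times in Nrdc+/+, 1.65 to 1.68 times in Nrdc-/- and 1.70 to 1.98 times in Nrdc-/-WT iMEF. Heavy chain genes are near-identical over long stretches, and how reads that fit several of them were counted is not given in the sources used here, so the split between them is uncertain.

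B2m (ENSMUSG00000060802, mm9 chr2:121973422-121978819, plus strand), the light chain that every class I heavy chain needs to reach the surface, was the most abundant member in each line, above percentile 99 of all listed genes. It was at 872 and 882 RPKM in Nrdc+/+, 1411 and 1330.0 RPKM in Nrdc-/-, and 638 and 555 RPKM in Nrdc-/-WT iMEF. Here the lowest libraries were those of Nrdc-/-WT and not of Nrdc+/+ iMEF. The fall in Nrdc-/-WT v.s. Nrdc-/- iMEF (log2 -1.20, SE 0.090, adjusted p = 1.47e-05) lay beside a smaller one in Nrdc+/+ v.s. Nrdc-/- iMEF (log2 -0.64, SE 0.090, adjusted p = 0.000244). B2m was the member that was higher in Nrdc+/+ than in Nrdc-/-WT iMEF (log2 0.56, adjusted p = 0.000585). The ratio of B2m to the summed heavy chains was 13.6 to 13.9 in Nrdc+/+, 4.05 to 4.40 in Nrdc-/- and 4.15 to 4.81 in Nrdc-/-WT iMEF, so the last 2 lines overlapped in this ratio while both levels differed between them.

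**Figure D2:**
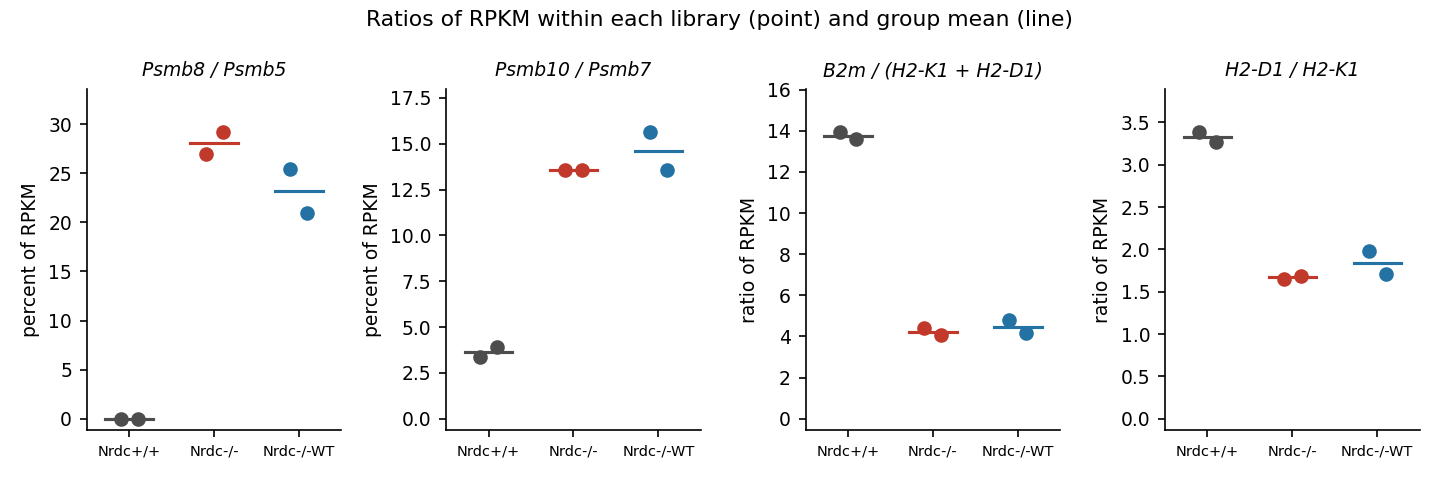
Ratios of RPKM within each library (points, with the group mean as a line): Psmb8 as a percent of Psmb5, Psmb10 as a percent of Psmb7, B2m to the sum of H2-K1 and H2-D1, and H2-D1 to H2-K1. Nrdc+/+ iMEF stand apart in all 4 panels, at 0%, 3.35% to 3.92%, 13.6 to 13.9 and 3.27 to 3.39, while the Nrdc-/- and Nrdc-/-WT points lie near each other.

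Tap1 and Tap2 form the transporter, and both were close to absent in Nrdc+/+ iMEF. Tap1 (ENSMUSG00000037321, mm9 chr17:34324498-34334170, plus strand) was at 0.108 and 0.177 RPKM in Nrdc+/+ iMEF, from 12 and 20 reads. It was at 8.72 and 9.20 RPKM in Nrdc-/- and at 5.34 and 5.73 RPKM in Nrdc-/-WT iMEF. Nrdc-/-WT iMEF thus lay below Nrdc-/- iMEF without overlap (log2 -0.67, SE 0.126, adjusted p = 0.00221) and 38.9-fold above Nrdc+/+ iMEF. The log2 fold change of Nrdc+/+ v.s. Nrdc-/- iMEF was -4.56 (SE 0.126, adjusted p = 2.16e-08), and with so few reads its size depended on the added constant, from -3.12 with 1 RPKM to -5.57 with 0.05 RPKM.

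Tap2 (ENSMUSG00000024339, mm9 chr17:34340472-34353266, plus strand) was at 0.104 and 0.0897 RPKM in Nrdc+/+ iMEF, from 8 and 7 reads, at 15.2 and 16.2 RPKM in Nrdc-/- iMEF and at 14.4 and 15.8 RPKM in Nrdc-/-WT iMEF. The Nrdc-/- and Nrdc-/-WT libraries overlapped. The log2 fold change between these lines was -0.06 (95% confidence interval -0.29 to 0.17, adjusted p = 0.633), so a change of 1.3-fold or more lies outside the interval. Against Nrdc-/- iMEF, Nrdc+/+ iMEF were lower by 162-fold (log2 -5.52, SE 0.100, adjusted p = 2.7e-09, and -3.93 with 1 RPKM added). Tap2 exceeded Tap1 by 1.75 to 1.76 times in Nrdc-/- and 2.69 to 2.76 times in Nrdc-/-WT iMEF. In Nrdc+/+ iMEF, with few reads of either gene, Tap2 was below Tap1, at ratios of 0.966 and 0.507. Part of the exons of each gene overlaps genes on the opposite strand. For Tap1 this is 212 bases with Psmb9, and for Tap2 533 bases with Gm15821 and 165 bases with Gm20496. Whether counting used strand is not given in the sources used here.

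Tapbp (ENSMUSG00000024308, mm9 chr17:34052844-34066235, plus strand), tapasin, was at 16.3 and 14.0 RPKM in Nrdc+/+, 141.9 and 146.9 RPKM in Nrdc-/-, and 176.0 and 184.0 RPKM in Nrdc-/-WT iMEF. Nrdc-/-WT iMEF were the highest and did not overlap with Nrdc-/- iMEF, but the log2 difference of 0.32 (95% confidence interval 0.13 to 0.50, adjusted p = 0.009) was below the 1.3-fold requirement. Without that requirement Tapbp counted as higher. The gap to Nrdc+/+ iMEF was 9.53-fold for Nrdc-/- iMEF (log2 -3.24, SE 0.079, adjusted p = 1.15e-08) and 11.9-fold for Nrdc-/-WT iMEF (log2 -3.55, adjusted p = 1.06e-08).

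**Figure D3:**
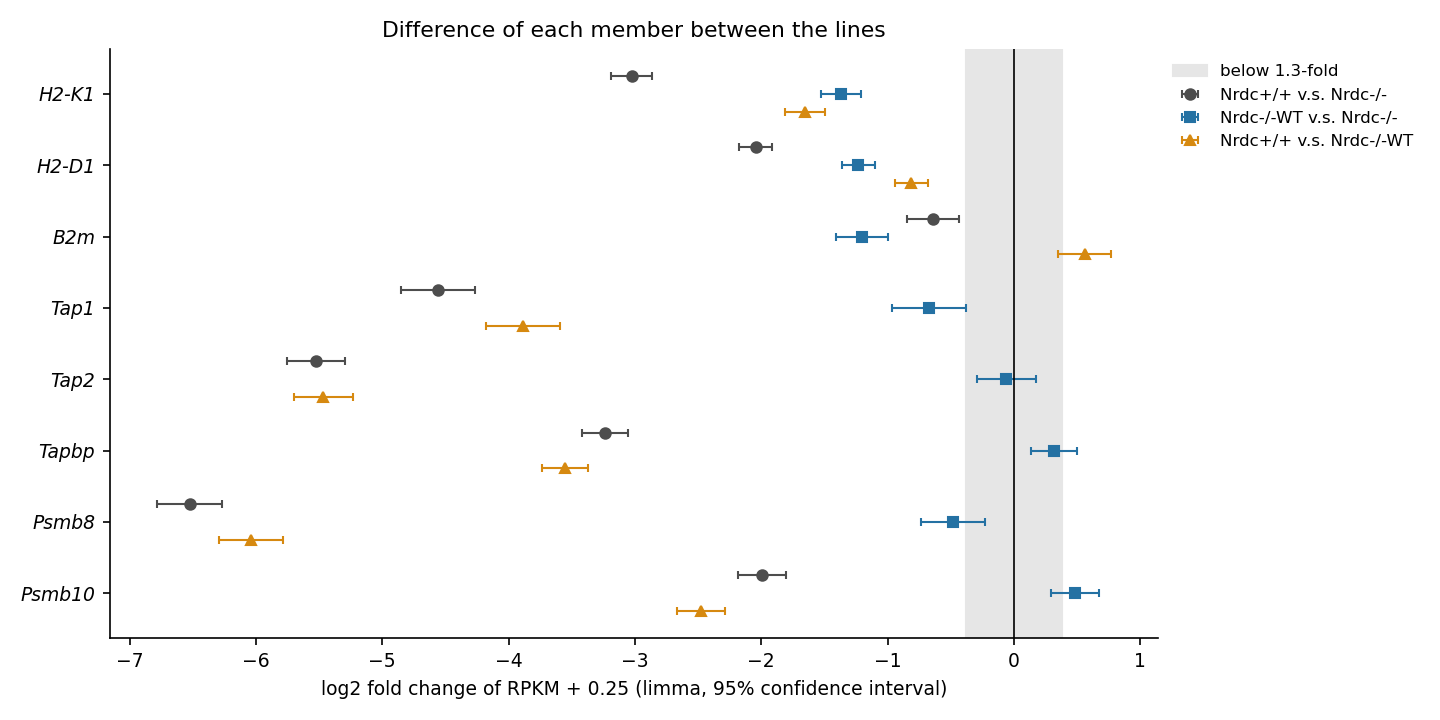
Log2 fold change of each tested member in the 3 comparisons, with 95% confidence intervals from limma and the range below 1.3-fold shaded. Nrdc+/+ v.s. Nrdc-/- is negative for all 8 members, from -0.64 for B2m to -6.52 for Psmb8, while Nrdc-/-WT v.s. Nrdc-/- runs from -1.37 for H2-K1 to 0.48 for Psmb10.

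The immunoproteasome subunits replace the catalytic subunits Psmb5, Psmb6 and Psmb7 of the standard proteasome and change which peptides are made. Psmb8 (ENSMUSG00000024338, mm9 chr17:34334666-34338399, plus strand), the counterpart of Psmb5, had 0 reads in both Nrdc+/+ libraries, 21.5 and 24.03 RPKM in Nrdc-/- iMEF and 17.4 and 15.1 RPKM in Nrdc-/-WT iMEF. With a floor of 3 reads over the 2 Nrdc+/+ libraries (0.0267 RPKM, counting error only), it was at least 852-fold higher in Nrdc-/- and at least 607-fold higher in Nrdc-/-WT iMEF than in Nrdc+/+ iMEF. The fitted log2 fold change of -6.52 (adjusted p = 2.06e-09) depends on the constant and is no bound, and the members' medians were the same with Psmb8 at its bound. Psmb8 shares 187 exon bases with Gm20496 on the opposite strand, so the strand setting that is not given applies to its counts as well. Nrdc-/-WT iMEF were lower than Nrdc-/- iMEF (log2 -0.48, SE 0.110, adjusted p = 0.00591), but this call was lost without the second Nrdc-/- library (-0.41, adjusted p = 0.0598) or the second Nrdc-/-WT library (-0.38, adjusted p = 0.0661).

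Psmb10 (ENSMUSG00000031897, mm9 chr8:108459628-108462292, minus strand), the counterpart of Psmb7 and a member located outside the MHC, was at 5.10 and 5.57 RPKM in Nrdc+/+, 21.6 and 22.4 RPKM in Nrdc-/-, and 32.7 and 29.0 RPKM in Nrdc-/-WT iMEF. Its order thus differed from that of Psmb8, with Nrdc-/-WT iMEF above both other lines. Psmb10 fell by 1.99 on the log2 scale in Nrdc+/+ v.s. Nrdc-/- iMEF (SE 0.083, adjusted p = 1.82e-07) and rose by 0.48 in Nrdc-/-WT v.s. Nrdc-/- iMEF (SE 0.083, adjusted p = 0.00133).

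Of the constitutive subunits, Psmb5, Psmb6 and Psmb7 were not called in Nrdc+/+ v.s. Nrdc-/- iMEF (log2 -0.16, -0.26 and -0.14). In Nrdc-/-WT v.s. Nrdc-/- iMEF Psmb7 rose (log2 0.39, adjusted p = 0.000928) and Psmb5 (-0.21) and Psmb6 (0.32) were not called. Within a library, Psmb8 amounted to 0% of Psmb5 in Nrdc+/+, 27.0% to 29.2% in Nrdc-/- and 20.9% to 25.4% in Nrdc-/-WT iMEF. Psmb10 amounted to 3.35% to 3.92% of Psmb7 in Nrdc+/+, 13.6% in both libraries of Nrdc-/- and 13.6% to 15.6% in Nrdc-/-WT iMEF. The higher Psmb10 of Nrdc-/-WT iMEF therefore went with a higher Psmb7.

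Psmb9, the counterpart of Psmb6, is listed as a pair of overlapping gene models (ENSMUSG00000024337 and ENSMUSG00000092299, mm9 chr17:34318932-34324709, minus strand) that share 3647 exon bases, 99.97% and 99.67% of their exons. Both rows had 0 reads in all 6 libraries. Among 137 listed genes with at least 95% of their exon bases in other listed genes, 123 (89.8%) were at 0 in every library, against 20.6% of all listed genes. The 0 of Psmb9 therefore gives no level, and no comparison was made for it.

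Within Nrdc+/+ iMEF the order of levels was B2m, H2-D1, then Tapbp and H2-K1, whose libraries overlapped, then Psmb10, Tap1, Tap2 and Psmb8. In Nrdc-/- iMEF it was B2m, H2-D1, Tapbp, H2-K1, then Psmb8 and Psmb10, which overlapped, then Tap2 and Tap1. In Nrdc-/-WT iMEF Tapbp (180.0 RPKM) stood above H2-D1 (86.2 RPKM), and Psmb8 and Tap2 overlapped.

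Genes that work beside the members were examined in 8 lists. Other class I chains were also lower: of 15 listed, 12 were matched and 8 tested. These 8, with a median log2 fold change of -1.71, were all lower in Nrdc+/+ than in Nrdc-/- iMEF, against 32.0% of all tested genes. H2-Q4 fell the most, from 14.0 and 13.7 RPKM in Nrdc-/- to 0.92 and 1.03 RPKM in Nrdc+/+ iMEF (log2 -3.52, adjusted p = 4.37e-08). H2-T22, a ligand of some gamma-delta T cells, fell by 2.28, H2-M3, which presents formylated peptides, by 2.12, and H2-Q6 by 1.76 on the log2 scale. In Nrdc-/-WT v.s. Nrdc-/- iMEF 5 of these 8 genes were lower, against 22.7% of all tested genes. Among the 5 were H2-Q4 (log2 -1.45) and H2-Q6 (-1.24), and H2-T22 (-0.09) and H2-M3 (0.11) were not called. H2-T23, named after its values were seen, went the other way: this chain, known as Qa-1, a ligand of the CD94/NKG2A receptor, was at 6.68 and 7.45 RPKM in Nrdc-/- and 20.0 and 18.5 RPKM in Nrdc-/-WT iMEF (log2 1.42, adjusted p = 6.69e-06). H2-Q7 averaged under 0.5 RPKM in Nrdc+/+ iMEF and passed the filter only through Nrdc-/- and Nrdc-/-WT iMEF. Of the matched chains below the filter, the lipid-presenting Cd1d1, named after its values were seen, had the opposite order, at 1.18 and 0.66 RPKM (62 and 35 reads) in Nrdc+/+, 0.09 and 0.215 RPKM in Nrdc-/- and 0.31 and 0.271 RPKM in Nrdc-/-WT iMEF. These chains can share reads with each other and with H2-K1 and H2-D1.

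All 8 genes listed under loading chaperones and peptide trimming of the endoplasmic reticulum were lower in Nrdc+/+ than in Nrdc-/- iMEF, against 32.0% of all tested genes. The median log2 fold change of the list was -1.25. Tapbpl, a tapasin relative that edits peptides (log2 -2.44), and the lectin chaperone Calr (-2.06) fell most. The trimming peptidase Erap1 (-1.43), the translocon subunit Sec61a1 (-1.25), Canx (-1.24), Hspa5 (-0.98), the endosomal peptidase Lnpep (-0.45) and Pdia3 (-0.40) fell less. In Nrdc-/-WT v.s. Nrdc-/- iMEF Hspa5 (-1.56), Calr (-1.19), Canx (-1.02), Pdia3 (-0.88) and Erap1 (-0.87) were lower, and Sec61a1 (-0.33), Lnpep (0.23) and Tapbpl (0.17) were not called. Calr, Canx, Pdia3 and Hspa5 serve protein folding in general. Tapbpl, like Tapbp, was lower in Nrdc+/+ and not called in Nrdc-/-WT iMEF, each against Nrdc-/- iMEF. These general chaperones were lower in both comparisons, but so was the trimming peptidase Erap1. Sec61a1 and Lnpep had the same calls as Tapbpl.

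The proteasome activator PA28 opens the proteasome, and its subunits Psme1 and Psme2 were lower in Nrdc+/+ than in Nrdc-/- iMEF (log2 -1.47 and -1.997), as was the assembly factor Pomp (-0.54), while the nuclear activator Psme3 was not called (-0.13). In Nrdc-/-WT v.s. Nrdc-/- iMEF Psme1 rose (0.61), Psme3 fell (-0.57), and Psme2 (0.36) and Pomp (-0.12) were not called. Psme1 stood at 14.3 and 13.0 RPKM in Nrdc+/+, 38.1 and 38.5 RPKM in Nrdc-/- and 59.2 and 58.3 RPKM in Nrdc-/-WT iMEF, the same order as Psmb10.

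**Figure D4:**
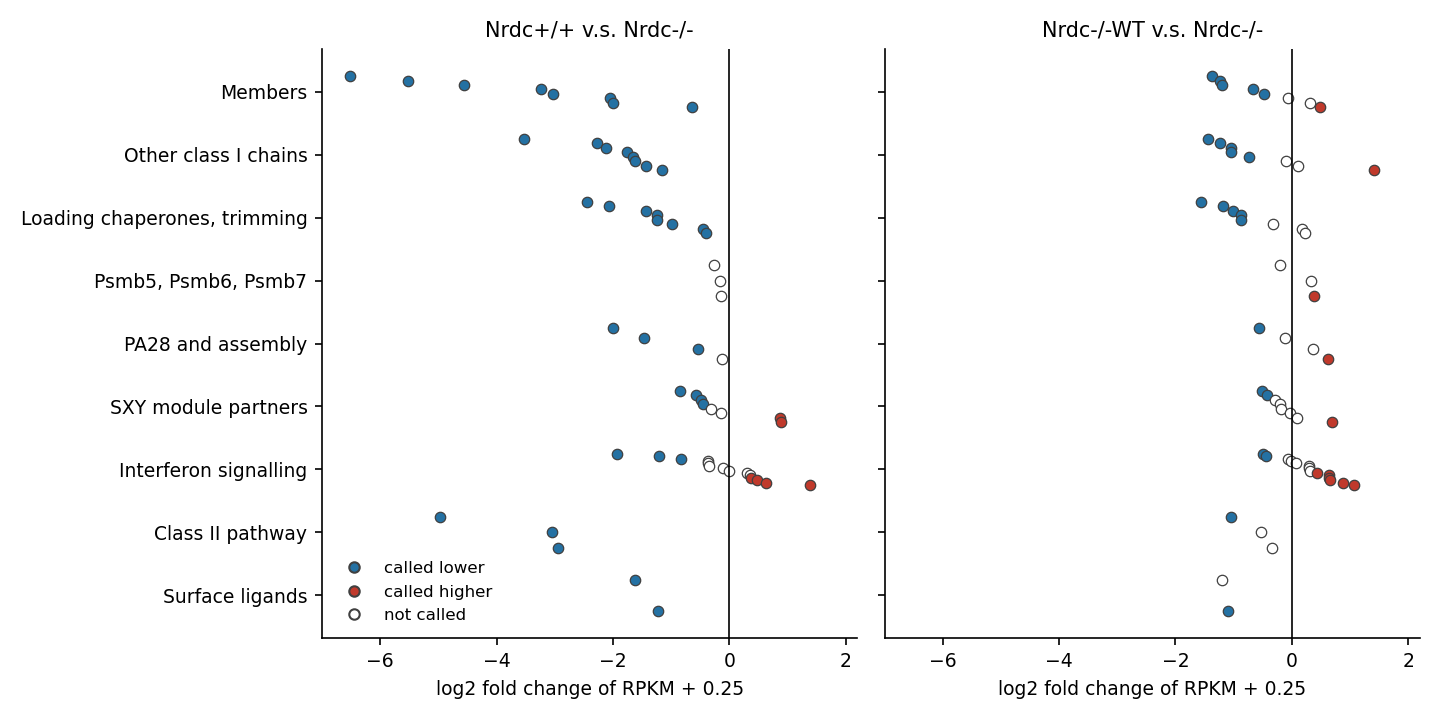
Log2 fold change of every tested gene of the members and of the 8 pathway lists, in Nrdc+/+ v.s. Nrdc-/- (left) and Nrdc-/-WT v.s. Nrdc-/- (right), with filled points for calls and open points for genes not called. On the left all tested members, other class I chains, chaperones and class II genes are called lower and the constitutive proteasome subunits are not called, while on the right every list holds genes that are not called and the members hold calls in both directions.

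The DNA-binding partners of the SXY module did not move together. Of 8 genes, 4 were lower in Nrdc+/+ than in Nrdc-/- iMEF, namely the RFX subunits Rfxank (log2 -0.84), Rfx5 (-0.57) and Rfxap (-0.46) and the NF-Y subunit Nfya (-0.48). Atf1 (0.90) and Nfyc (0.87) were higher, and Creb1 (-0.31) and Nfyb (-0.13) were not called. Of all tested genes 32.0% were lower and 30.2% higher in this comparison. In Nrdc-/-WT v.s. Nrdc-/- iMEF Nfyc rose (0.70), Creb1 (-0.51) and Nfyb (-0.42) fell, and Rfx5 (-0.20), Rfxap (-0.18), Rfxank (0.09), Nfya (-0.04) and Atf1 (-0.30) were not called. The median over the list was -0.38 and -0.19 in the 2 comparisons.

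Among 16 interferon receptors, kinases and factors, 14 were tested, and 3 were lower and 4 higher in Nrdc+/+ than in Nrdc-/- iMEF (median log2 -0.05). Of all tested genes 32.0% were lower and 30.2% higher, and the counts of the list are not above these shares. Irf1, a factor that binds interferon response elements, was at 5.39 and 4.19 RPKM in Nrdc+/+, 18.7 RPKM in both libraries of Nrdc-/-, and 28.4 and 30.6 RPKM in Nrdc-/-WT iMEF. It fell in Nrdc+/+ (log2 -1.92, adjusted p = 1.24e-06) and rose in Nrdc-/-WT iMEF (0.65, adjusted p = 0.00131), each against Nrdc-/- iMEF. Psmb10, Psme1 and H2-T23 had the same calls. Tapbp, Psme2, Psmb7, Tyk2 and Ifnar1 had the same order of means, so the order was not particular to Irf1. The kinase Tyk2 was lower in Nrdc+/+ iMEF (-0.83) and not called in Nrdc-/-WT iMEF (0.30). The gamma interferon receptor chain Ifngr1 was higher in Nrdc+/+ (1.40) and not called in Nrdc-/-WT iMEF (0.07). In Nrdc-/-WT v.s. Nrdc-/- iMEF 6 genes of the list were higher and 2 lower, against 20.5% and 22.7% of all tested genes. The interferon gene Ifng had 0 reads in all libraries, and Ifnb1 had 0 reads in all but the second Nrdc-/- library, where it was at 0.0716 RPKM.

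The class II pathway, which presents proteins taken up from outside and belongs to professional presenting cells, was examined as a mark of such cells. Its alpha and beta chain genes were near 0: H2-Aa had no read, H2-Ab1 reached at most 0.101 RPKM, H2-Eb1 at most 0.0395 RPKM, and the transactivator Ciita at most 0.0465 RPKM. Against 32.0% of all tested genes, all 3 tested genes of this list were lower in Nrdc+/+ than in Nrdc-/- iMEF. They were H2-DMb1 (log2 -4.97) and H2-DMa (-2.94), which exchange peptides on class II molecules, and the invariant chain Cd74 (-3.04), for which the Nrdc-/-WT libraries were also lower than those of Nrdc-/- iMEF (-1.04, adjusted p = 0.0134). H2-DMa and Cd74 averaged under 0.5 RPKM in Nrdc+/+ iMEF and passed the filter only through the other lines. Neither H2-DMa (-0.53) nor H2-DMb1 (-0.33) was called in that comparison.

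H2-DMb1, H2-DMa and H2-DMb2 are also neighbours of Tap1, Psmb8 and Tap2, and the 100 kb on either side were therefore read gene by gene. H2-DMb1, which ends at -27.3 kb relative to the start of Tap1, had mean levels of 0.808, 32.7 and 25.9 RPKM in Nrdc+/+, Nrdc-/- and Nrdc-/-WT iMEF. H2-DMb2 had 0.0852, 3.15 and 2.15 RPKM, and H2-DMa 0.297, 3.98 and 2.63 RPKM. On the same side, Brd2, a chromatin reader whose midpoint lies beyond H2-DMa, had means of 37.5, 45.9 and 50.3 RPKM. The genes on the other side of Tap2, H2-Ob, H2-Ab1 and H2-Aa, were at or near 0 in all lines. From H2-DMa to Tap2, the genes picked by a mean above 1 RPKM in Nrdc-/- iMEF were all below 1 RPKM in Nrdc+/+ iMEF. The genes and the ends of this stretch follow from the values, so this is a description and no test of the region. Tapbp and H2-K1 start at -271.7 and -191.5 kb relative to the start of Tap1, and H2-D1 at 1075 kb. Their means in Nrdc+/+ iMEF were 15.2, 14.7 and 49.0 RPKM.

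**Figure D5:**
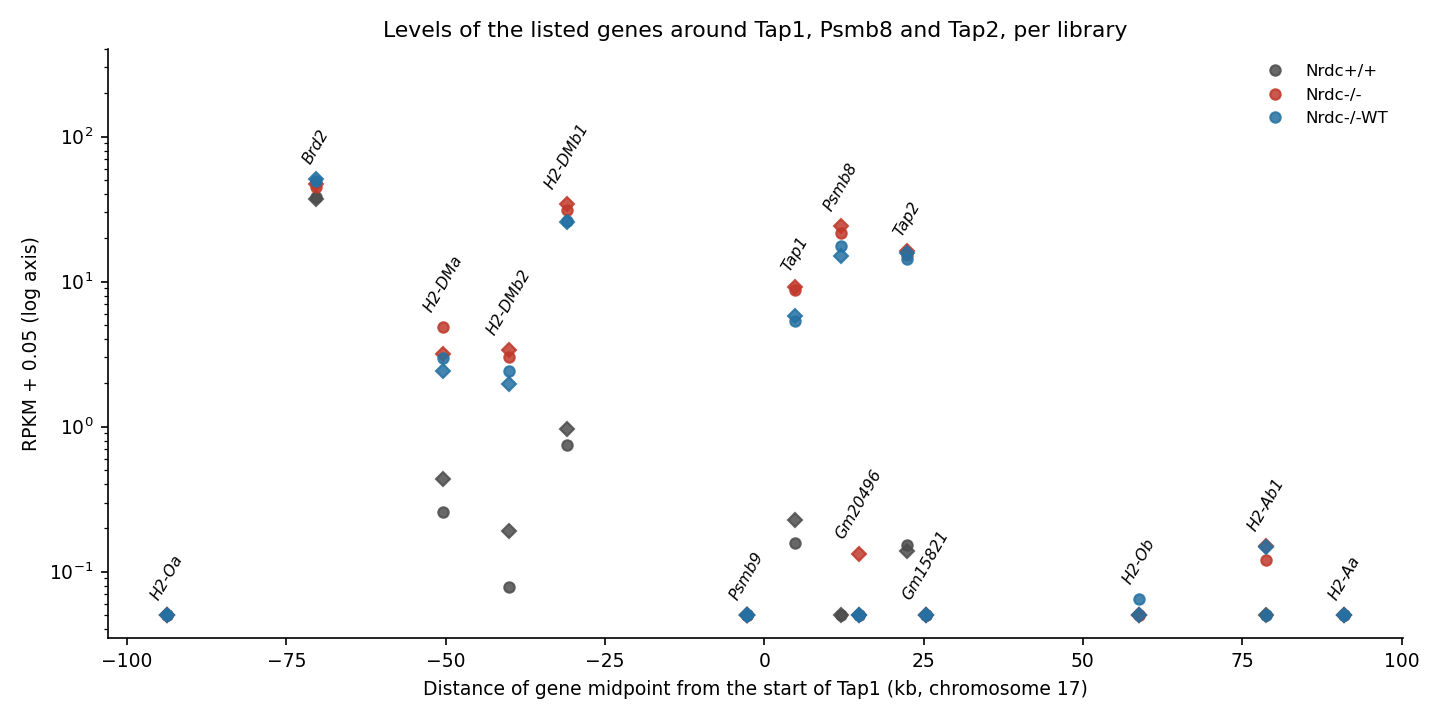
RPKM + 0.05 (log axis) of each listed gene starting within 100 kb of the start of Tap1, against the distance of its midpoint in kb, with circles and diamonds for the first and second library of a group. The 6 genes from H2-DMa to Tap2 with over 1 RPKM in Nrdc-/- iMEF were picked by that level. Their Nrdc+/+ points lie below 1 RPKM and the other lines reach 2.15 to 32.7 RPKM on average. Brd2 lies between 37.0 and 51.2 RPKM in all 6 libraries and Psmb9 is listed at 0.

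Outside the pathway, the 5 genes whose profile over the 6 libraries was closest to the median profile of the 8 members were Smad9, Tnfrsf11b, Perp, Emilin1 and Car5b, with root mean square differences of 0.148 to 0.170 in log2(RPKM + 0.25) after centring each gene on its mean. The members themselves differed from their median by 0.313 (Tapbp) to 1.53 (Psmb8), and the smaller distance of these 5 genes follows from their choice. Emilin1, a glycoprotein of elastic fibres, was at 21.2 and 20.5 RPKM in Nrdc+/+, 157 and 166.6 RPKM in Nrdc-/- and 144.9 and 148.8 RPKM in Nrdc-/-WT iMEF. Tnfrsf11b, the decoy receptor osteoprotegerin, was at 4.39 and 4.69, 48.7 and 44.4, and 41.1 and 38.6 RPKM in the same order. Smad9 transmits BMP signals, Perp is a membrane protein of desmosomes and Car5b is a mitochondrial carbonic anhydrase. The likeness of the 5 genes to the members was fixed by the way they were chosen and is given as a description.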

How the data were processed

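The authors purified mRNA with oligo(dT) beads, sequenced it on Ion Proton instruments, aligned reads to mm9 with STAR and Bowtie2, used featureCounts for counts per protein-coding gene and edgeR for RPKM. The deposited values are log2 RPKM with a small constant. For tool versions and the strand setting, no source used here gives a value.

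The constant (0.912 to 1.12 reads per library) was subtracted. RPKM times gene length then gave whole reads, within 0.05, for 100% of 22706 low values. limma 3.58.1 in R 4.3.3 (lmFit, eBayes with a trend, two-sided) was run on log2(RPKM + 0.25) of the 11598 genes averaging 0.5 RPKM or more, over all 6 libraries, with 3 residual degrees of freedom and Benjamini-Hochberg adjustment. Such fold changes understate those of low genes. Calls required an adjusted p under 0.05 and a 1.3-fold change. Replicates differed beyond sampling noise (chi-square of 4.02 to 8.59 per gene) and count as separate libraries. Fold values are ratios of mean RPKM. Coordinates of genes are mm9, those of promoter windows GRCm38.p6.

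The members and lists were chosen with earlier results of these data known. Named genes were all members, every gene of pathway lists with at most 8 genes, up to 4 called genes with the largest change in Nrdc+/+ v.s. Nrdc-/- iMEF from longer lists, and the 5 genes with the profile closest to the members' median. The 4 lists of cell type markers are given as sums, and single markers were named after their values were seen. Some genes that these rules name are not reported here. Alternatives were other constants, filters, scalings, thresholds and fits, a replicate block, and leaving out each library. The code was tested on simulated data.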

Additional observations from a re-analysis of the deposited data

How the results depend on the processing

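Of 461 fold changes of members recomputed over 20 alternatives, 451 kept their direction and their side of the threshold. The main counts of called genes, 7206 in Nrdc+/+ v.s. Nrdc-/-, 5008 in Nrdc-/-WT v.s. Nrdc-/- and 7009 in Nrdc+/+ v.s. Nrdc-/-WT iMEF, became 4788, 3242 and 4669 with a mean of at least 5 RPKM, which tests fewer genes, and 2906, 1398 and 2726 with a fold threshold of 2. With that threshold 3 members, H2-K1, H2-D1 and B2m, were called in Nrdc-/-WT v.s. Nrdc-/- iMEF in place of 6. B2m (log2 -0.64) also lost its call in Nrdc+/+ v.s. Nrdc-/- iMEF. So did B2m (0.56) and H2-D1 (-0.81) in Nrdc+/+ v.s. Nrdc-/-WT iMEF. Leaving out each library in turn, where a lone library is assumed to vary like the other groups, called 8 members in both comparisons with Nrdc+/+ iMEF and 5 to 6 in Nrdc-/-WT v.s. Nrdc-/- iMEF, where Tap2 ran from -0.13 to 0.0085 on the log2 scale and changed sign without the first Nrdc-/-WT library. The deviations of same-numbered libraries correlated at -0.03, 0.01 and -0.10 between groups, so the numbers did not pair the libraries. With the replicate block 7218, 5002 and 7022 genes and 8, 6 and 8 members were called. A crossed block, added after seeing the data, called 7022 genes in Nrdc+/+ v.s. Nrdc-/-WT iMEF. The sizes of the Tap1, Tap2 and Psmb8 differences from Nrdc+/+ iMEF depend on the constant, since 0 to 20 reads per library stand behind the low side.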

Other observations

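Surface ligands of other lymphocyte receptors were read beside the class I genes. Of 5 listed, 4 were matched and 2 tested. Raet1e, a ligand of the activating receptor NKG2D, was at 19.7 and 26.1 RPKM in Nrdc+/+, 53.6 and 53.0 RPKM in Nrdc-/-, and 25.2 and 24.2 RPKM in Nrdc-/-WT iMEF. It was lower in both Nrdc+/+ (log2 -1.22, adjusted p = 2.34e-05 in limma) and Nrdc-/-WT iMEF (-1.10, adjusted p = 9.34e-05) than in Nrdc-/- iMEF, and the difference between the first and the last line was not called (-0.12, 95% confidence interval -0.39 to 0.14). H60b, another NKG2D ligand, had at most 1.38 RPKM and passed the filter only through Nrdc-/- iMEF. It was at 0 and 0.559 RPKM (0 and 14 reads) in Nrdc+/+ and 1.38 and 0.910 RPKM in Nrdc-/- iMEF. The call of lower in Nrdc+/+ iMEF (-1.61, SE 0.468, adjusted p = 0.0133) thus rests on few reads and on libraries that differed. The PD-1 ligand genes were low: Cd274 lay between 0.355 and 0.701 RPKM in all libraries, below the filter in mean level, and Pdcd1lg2 had 0 reads.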
